A study of Macaca mulatta with 11 samples.

Results

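A window of 1.5 Mb on rhesus macaque chromosome 6, crowded with partly methylated CpG islands, was examined. It was cut out by position, and it held 8004 of the 158939 measured positions of the chromosome. Runs were formed of positions no more than 200 bp from the next, and were cut every 1000 bp to regions. This gave 455 regions in the window, of 262618 in the whole table, from 137503523 to 139000024, and 1 short run crossed the end of the window. A region or run with at least 20 positions is called dense, and a dense run is called an island. The window held 149 dense regions and 115 islands. Of the dense regions 28 had 20 to 24 positions, with a median level of 31.9%, and 27 regions just below that limit, with 15 to 19, had a median of 45.6%. In all, 127 regions had 5 to 19 positions, and 62 were single positions.

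Bisulfite reads were counted in biopsies of prefrontal cortex area 46 from 11 rhesus macaques, all alcohol-naive when the tissue was taken. Cohort 10 held 2 animals, with ages of 5.02 and 5.08 and ethanol values over 6 months of 2.11 and 3.19. Cohort 14 held 9 animals, with ages from 5.18 to 5.44 and ethanol values from 1.69 to 4.31. The ethanol value is called the intake value here, and the labels state no unit for it or for age. Area 46 lies in the dorsolateral prefrontal cortex, which serves working memory and decisions. The libraries were enriched with probes designed on the human genome, so a CpG is listed only where macaque DNA was caught by them. The labels name no sorting of cells, and the tissue was not checked against marker genes, since no gene positions on the build of the tables were used here. For the same reason the islands are given by the coordinates of the tables, and no gene is named.

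In mammals most CpGs carry a methyl group, which is copied at each cell division and is linked to silent chromatin. CpG islands are short stretches rich in CpGs that often lie at the starts of genes and are mostly free of methylation. An intermediate level is read here as some DNA molecules of the sample being methylated and others not, which was not tested. The counts do not tell whether such a split lies between the 2 alleles, between cells of 1 type or between cell types. Fewer cells of a type and less methylation per cell cannot be told apart in such tissue.

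Summed over all positions the libraries held 479979855 to 934657900 counts. In the window the mean depth was 217.8 to 400.6 reads a position, and no position had fewer than 12. Reads copied by PCR are not independent molecules, so depth overstates precision. The window was chosen by the density of its positions, their levels and their spread between animals. These are therefore given as a description, without a test, and the other windows of the chromosome stand beside them for scale. The methylation level is the percentage of methylated reads among all reads of a region in an animal, and the level of a region is the mean over the 11 animals.

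Islands were crowded in the window and most of them were partly methylated. Islands covered 9.35% of the window and held 83.9% of its positions. The midpoints of neighbouring islands lay a median of 4995 bp apart, against 20044 bp over the other 1689 islands of chromosome 6. The narrowest spacing was 686 bp. The widest, 137875 bp, followed the island that ends at 137804912, and the next, 127778 bp, followed the one that ends at 137574429. Among 118 windows of 1.5 Mb on the chromosome, 1 other window held as many dense regions. That window, from 1 to 2.5 Mb, had 8171 positions and a median dense-region level of 85.6%. The median number of positions over the other 117 windows was 872.

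Levels from 20% to 80% are called intermediate. Of the 149 dense regions, 46 lay under 20%, 100 were intermediate and 3 lay over 80%. The share at intermediate level was 67.1%, against 21.2% of the 2121 dense regions on the rest of chromosome 6. Over the other 34 windows with at least 20 dense regions this share ran from 4.35% to 56%, with a median of 19.6%. The window therefore stood first of 35 in that order, and the window from 89.5 to 91 Mb came next. The limits cut through a continuous range at the lower end. The dense region just under 20% nearest to it had 19.5% ± 2.05 (SD, n = 11), and the nearest above it had 20.3% ± 1.53. At the upper end the dense regions nearest to 80% had 76.1% ± 1.53 and 81.5% ± 1.69.

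**Figure D1:**
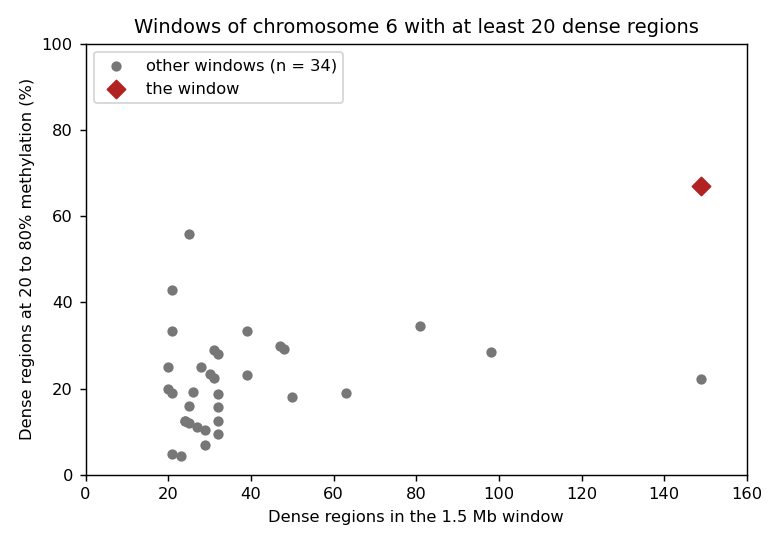
Each point is a 1.5 Mb window of chromosome 6 with at least 20 dense regions; the x axis counts its dense regions and the y axis gives the percentage of them at 20% to 80% methylation. The diamond is the window described here, with 149 dense regions and 67.1%, and the 34 grey points lie between 4.35% and 56%.

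Regions of the window below the density limit were partly methylated as well. They include ends of islands left over by the cut every 1000 bp, so not all are sparse stretches outside islands. Of its 127 regions with 5 to 19 positions, 88 were intermediate, which is 69.3%, against 39.9% of such regions on the rest of the chromosome. Of all 8004 positions of the window, 83.9% of which lay in islands, 56.3% had a mean level from 20% to 80%, against 23.3% on the rest of chromosome 6. At 108 positions, 1.35% of the window, at least 1 animal was under 20% while at least 1 other exceeded 80%. That share was 1.74% over the whole table.

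The partly methylated islands fell into 3 arrays. An array was taken as a run of at least 10 islands whose midpoints were each at most 20 kb from the next, from its first to its last intermediate island, a rule made after the levels were seen. The first array held 26 islands over 97.7 kb (chr6:138172493-138270211), the second 17 islands over 143.0 kb (chr6:138476363-138619387), and the third 34 islands over 101.6 kb (chr6:138703679-138805249). Of these 77 islands, 75 were intermediate. Outside the arrays the window held 38 islands, of which 27 lay under 20%, 7 were intermediate and 4 lay over 80%. At positions within the arrays 78.9% had an intermediate level, and at the other positions of the window 23.3% did, close to the rest of the chromosome.

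**Figure D2:**
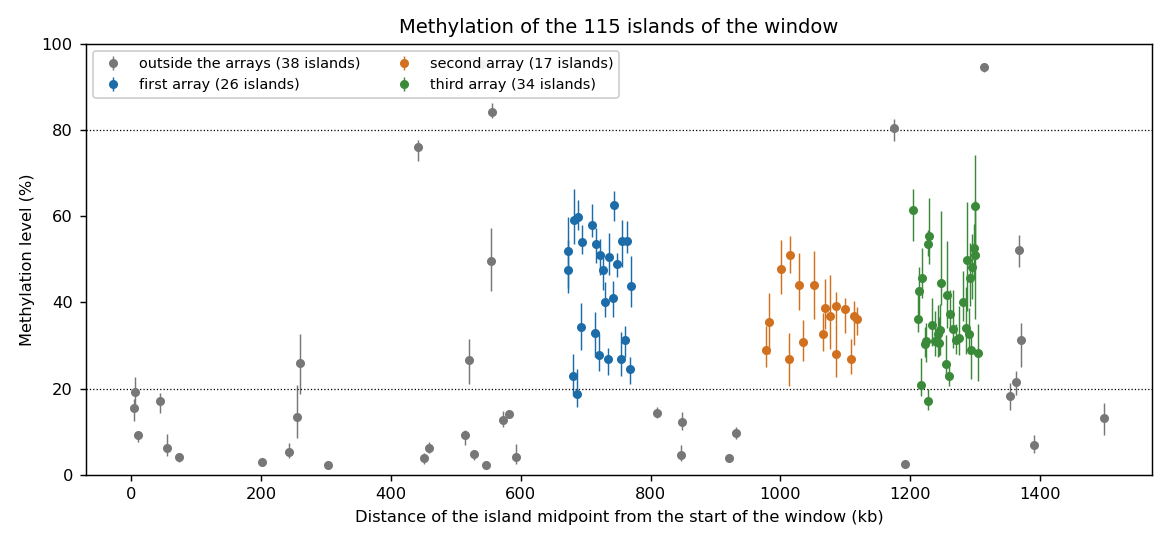
Points give the mean methylation level (%) of each of the 115 islands over 11 animals, against the distance of the island's midpoint from the start of the window (kb); bars run from the lowest to the highest animal, and dotted lines mark 20% and 80%. The 3 arrays form 3 clusters of partly methylated islands, and most of the 38 islands outside them lie under 20%.

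The arrays differed in how their islands were built. Islands of the first array were short and rich, with a median of 57 positions over 857 bp, and their median level was the highest of the 3, at 47.5%. The second array was the most open, with a median spacing of 7760 bp and a median of 38 positions, and its median level was 36.8%. In the third array the median spacing was 3062 bp, the median number of positions 55.5 and the median level 34.4%. Levels ran from 18.6% to 62.7% in the first array, from 26.9% to 51.1% in the second, and from 17.1% to 62.3% in the third.

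Within islands, intermediate levels were mostly levels of the single CpGs rather than averages of low and high ones. The median share of an island's positions at 20% to 80% was 87.8% in the first array, 75% in the second and 78.7% in the third. Over the other 409 intermediate islands of chromosome 6 it was 56.3%. In the first array 17 of 26 islands had at least 80% of their positions at intermediate level, in the third 15 of 34, and in the second 5 of 17. Among those other islands of the chromosome 99 of 409 did, or 24.2%.

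Islands of the first array came in pairs, a less methylated one followed by a more methylated one. Of its 26 islands, 24 formed 12 pairs with a gap of at most 1500 bp, a limit set after the map was seen. The starts of the 2 islands of a pair lay a median of 1996 bp apart, and the second islands of successive pairs a median of 6848 bp apart. The first island had a median of 41.5 positions over 951 bp and a median level of 29.5%. The second had 68 positions over 692 bp and a median level of 53.8%. In 10 of the 12 pairs the second island was the more methylated, and in these 10 it was so in each of the 11 animals.

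The widest step lay in the pair at chr6:138185873-138186803 and chr6:138188051-138188790. The first of these islands, with 24 positions, had levels from 15.7% to 24.7% with a median of 18.1%. The second, with 67 positions, had levels from 56.9% to 63.8% with a median of 59.3%. The 2 ranges did not overlap, and the difference within an animal was 41.1 ± 3.13 points (SD, n = 11). The next widest step, 36.2 ± 4.54 points, lay between chr6:138180028-138180871 and chr6:138181884-138182575, and the second island was higher in 11 of 11 animals. The 2 pairs that went the other way were chr6:138226727-138227802 with its neighbour, where the second island was lower by 7.43 ± 2.78 points in all 11 animals, and the pair at the start of the array. There the second island was higher in 3 animals and lower in 8, with a mean difference of -4.33 ± 5.18 points. That pair was unlike the others, with a gap of 255 bp against a median of 1012 bp over the 12 pairs. Its first island was also shallow, with a median of 697 reads per animal against 15332 in the second.

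**Figure D3:**
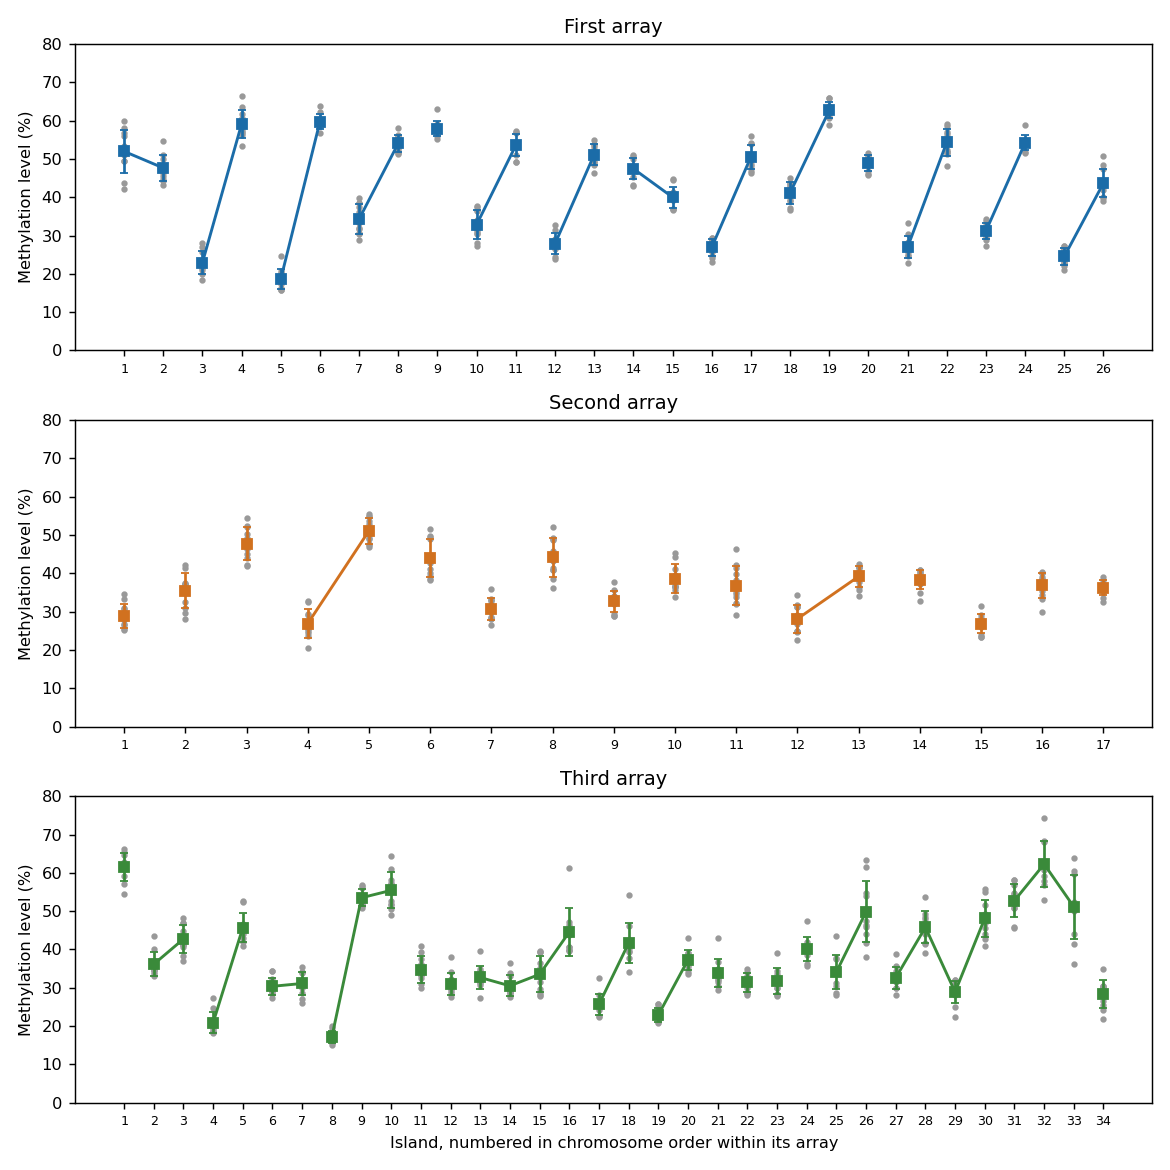
Squares and bars give the mean and SD of each island's methylation level (%) over 11 animals and grey dots the single animals, with the islands of each array numbered in chromosome order; a line joins neighbours with a gap of at most 1500 bp. The first array alternates between lower and higher islands, from 18.6% to 62.7%, and the second has few close neighbours.

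Most steps between close neighbours had the same direction in the other arrays. The second array had 2 such steps and the third 16, where an island could belong to a step on either side. The level rose along the chromosome in 2 of 2 and in 13 of 16 steps. It rose in all 11 animals in 2 of 2 and in 10 of 16, and fell in all 11 in 2 of 16. The smallest rises in the third array, 0.74 ± 2.72 points with 6 of 11 animals and 1.92 ± 3.63 with 7 of 11, were within the spread between animals. The widest rise in the third array led from 17.1% ± 1.62 at chr6:138726441-138727079 to 53.5% ± 2.15 at chr6:138727316-138727635 (SD, n = 11), over a gap of 237 bp. The widest fall, 16.9 ± 2.38 points in all 11 animals, led from chr6:138790630-138791817 to chr6:138792219-138793714. Elsewhere on chromosome 6, at 154 steps with at least 1 intermediate island, the level rose in 77, or 50%. There it rose in all 11 animals in 70 steps and fell in all 11 in 73. Agreement between animals was thus common outside the window as well.

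Levels also rose along the chromosome within islands of the second array and of the third. Each island was cut into 5 parts with about equal numbers of positions. In the second array the last part was more methylated than the first in 13 of 17 islands, and the median over islands went from 17.9% to 43.6%. In the third it was so in 28 of 34 islands, with medians of 25.3% and 44.5%. The island at chr6:138476363-138478229, the first of the second array, went through 11.2%, 16.5%, 37.9%, 57.1% and 44.3%. At chr6:138617845-138619387, the last of the same array, the parts had 11.7%, 17.1%, 28.7%, 47.6% and 53.7%. In the first array 14 of 26 islands ended higher than they began, and 196 of the other 409 intermediate islands of chromosome 6 did.

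Islands outside the arrays were mostly low, and a few were almost fully methylated. The lowest dense region, chr6:137958715-137959258, had 2.08% ± 0.43 (SD, n = 11), with animals from 1.52% to 2.92%. It was followed by 2.21% ± 0.44 at chr6:137802877-137803848 and 2.25% ± 0.41 at chr6:138045568-138046533. The highest, chr6:138039538-138040115, had 95.4% ± 0.79, and chr6:138812969-138813674, just past the end of the third array, had 94.7% ± 0.58. Low and high islands could follow each other, as the almost fully methylated island of 33 positions is next in order to the one at 2.25%.

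Of the 5 islands with most positions, 3 lay outside the arrays. The island with most, chr6:137509687-137512544, held 199 positions over 2858 bp at 9.17% ± 0.78 (SD, n = 11). The island at chr6:138307927-138310943, between the first and second arrays, held 159 positions at 14.4% ± 0.80. The island at chr6:138852679-138855707, after the third array, had 18.2% ± 1.62. The other two were islands of the third array, at 33.9% ± 3.69 and 28.3% ± 3.61. The 3 islands outside the arrays had the smaller spread between animals, but also the lower levels.

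Of the 7 intermediate islands outside the arrays, several changed from low to high along their length. At chr6:137760402-137760881, with 28 positions and a level of 25.9% ± 4.61 (SD, n = 11), the 5 parts had 5.48%, 8.33%, 17.2%, 47.7% and 86.1%. At chr6:138020323-138021686 the level was 26.6% ± 2.96, and the parts had 4.15%, 2.66%, 6.09%, 63.4% and 75.9%. Their intermediate level is thus the mean of a low and a high stretch, unlike most islands of the first array. At chr6:138862214-138864119, with 21.6% ± 1.66, the parts rose from 5.87% to 47.6%. The island of 31 positions at chr6:138054703-138055210, at 49.5% ± 5.31, was followed closely by chr6:138055510-138056703, at 84.3% ± 1.20.

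A short group of partly methylated islands followed the third array. The island at chr6:138866494-138868836 had 52.2% ± 2.89 (SD, n = 11) and its 5 parts ran from 22.5% to 79.2%. Its neighbour at chr6:138869200-138870614, with 112 positions, had 31.2% ± 3.78 and parts from 17.0% to 62.7%. The last dense region of this neighbour, chr6:138870203-138870614, was at 66.2% ± 6.68, with animals from 54.8% to 75.4%.

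Dense regions nearest to 50% came from each array. At chr6:138236132-138236722 in the first array, animals ran from 46.4% to 56.0% with a median of 50.3%. At chr6:138221950-138222641 in the same array they ran from 46.3% to 54.8% with a median of 50.9%, and at chr6:138514561-138515421 in the second from 46.9% to 55.5%. The region of the third array nearest to 50%, chr6:138786296-138787109, ran much wider, from 38.1% to 63.4% with a median of 47.5%. Outside the arrays, chr6:138054703-138055210 ran from 42.7% to 57.3% with a median of 48.0%.

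The spread between animals was moderate for the level. The median SD over the 149 dense regions was 2.81 points, against 1.35 on the rest of the chromosome, where most dense regions were low. Among intermediate dense regions alone, the median SD was 3.36 points for the 100 of the window and 3.95 for the 449 elsewhere on chromosome 6. The former had a median of 40.5 positions and 10226 reads per animal, the latter 31 positions and 6307 reads. The largest range between 2 animals was 27.7 points among the 100 regions and 55.1 among the 449. A maximum tends to grow with the number of regions, so these 2 values are not directly comparable.

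Some animals lay high or low in nearly all intermediate dense regions of an array. In the second array, cohort 10 animal 1 lay under the mean of the 11 animals in each of 19 intermediate dense regions, with a mean level of 31.6%. Cohort 14 animals 1 and 3 lay above it in 19 of 19, with mean levels of 40.1% and 40.9%. Over the 11 animals the mean level there was 36.4% ± 3.24 (SD), from 31.6% to 40.9% with a median of 35.6%. The 449 intermediate dense regions of the rest of chromosome 6 had 49.3% ± 0.52, and the animals ranged over 1.66 points there against 9.38 in the second array. In that set no animal was above the region mean in fewer than 40.8% or more than 59.2% of the regions. A mean over fewer regions varies more by itself, and the number of regions differs between these sets. The 19 regions are also close neighbours, which varied together (below), while the 449 are spread along the chromosome. The 2 ranges are therefore not directly comparable.

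In the first array the highest animals were again cohort 14 animals 1 and 3, at 47.4% and 46.8%, above the mean in 24 and 22 of 25 regions. The lowest was again cohort 10 animal 1, at 41.8%, and cohort 14 animal 9 had 42.1%. The animals had a median of 43.5% and an SD of 1.87. Cohort 10 animal 2 was low here, above the mean in 5 of 25 regions, but high in the second array, above it in 17 of 19.

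In the third array the highest animal was cohort 14 animal 6, with a mean level of 43.5% over 43 regions and above the mean in 38 of them. Cohort 14 animals 3 and 1 came next, at 39.7% and 39.2%, above the mean in 33 and 32 of 43 regions. Animal 6 was near the middle in the first array, at 43.8%, and in the second, at 35.6%. The lowest animals were cohort 14 animal 7, at 34.8%, cohort 10 animal 2, at 35.0%, and cohort 14 animal 8, at 35.4%. The median was 38.1% and the SD 2.55. Animal 6 deviated by 4.46 points over the first 22 regions and by 6.81 over the last 21, whereas cohort 14 animal 1 went from 3.37 to -0.82. Of the 11 animals, 4 had a mean deviation above 0 in all 3 arrays, 4 had one below 0 in all 3, and 3 changed sign, namely cohort 10 animal 2 and cohort 14 animals 6 and 9.

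**Figure D4:**
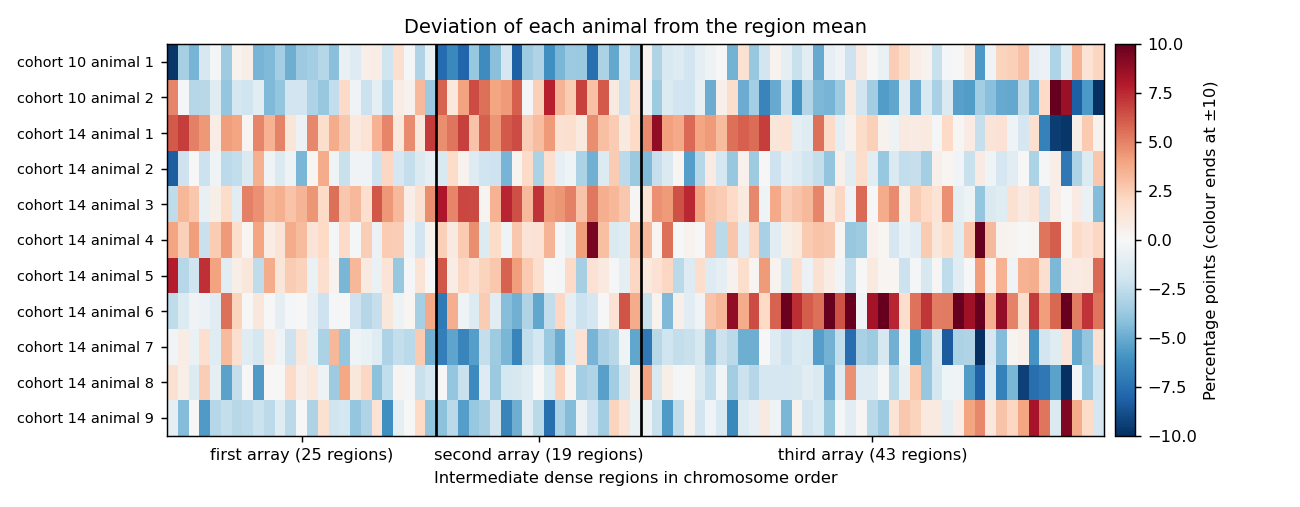
Each column is an intermediate dense region of the arrays in chromosome order and each row an animal; the colour gives the animal's level minus the mean of the 11 animals in percentage points, red for above and blue for below. Colours run on along a row within an array, as for cohort 10 animal 1 in the second array and cohort 14 animal 6 in the third, and the mean deviation kept its sign over the 3 arrays in 8 of the 11 animals.

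Of the 5 dense regions with the largest SD, 4 lay in the third array and 1 after it. The largest, 8.35 points, was at chr6:138800119-138800589, with 21 positions. Cohort 10 had 50.1% and 59.8% there, and cohort 14 ran from 36.1% in animal 8 to 63.8% in animal 6, with animals 1 and 2 at 41.4% and 44.0%. Its neighbour chr6:138799470-138799867, with 25 positions, had 74.3% in cohort 10 animal 2 and 52.8% in cohort 14 animal 1, with an SD of 6.05. At chr6:138786296-138787109 the SD was 7.96, and animals 4 and 6 of cohort 14 were the highest, at 61.6% and 63.4%. The region at chr6:138747304-138748296 had an SD of 6.23, with cohort 14 animal 6 at 61.2% and the other 10 between 39.5% and 47.2%.

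Neighbouring regions of the window varied together across animals. Pearson's r over the 11 animals was computed for pairs of intermediate dense regions from different islands. It is a description, since the pairs share animals, libraries and regions. The median r in the window was 0.63 for 86 pairs at most 5 kb apart, 0.58 at 5 to 20 kb, 0.51 at 20 to 50 kb and 0.25 at 50 to 100 kb. On the rest of chromosome 6 the medians were 0.24, 0.34, 0.03 and 0.03, and on the other 19 chromosomes 0.20, 0.10, 0.06 and 0.01. Beyond 5 kb the second array had the highest medians of the 3 arrays, 0.73 at 5 to 20 kb and 0.66 at 50 to 100 kb. The third fell from 0.61 to 0.24 and the first from 0.47 to 0.35 over the same distances.

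Pairs of regions from 2 arrays, whose distances differ from those above, had a median r of 0.40 over 475 pairs from the first and second arrays, 0.21 over 1075 from the first and the third, and 0.15 over 817 from the second and the third. For pairs at most 20 kb apart the median was 0.59 in the window and 0.31 on the rest of the chromosome. Without cohort 14 animal 6 these were 0.54 and 0.27. Cohort 14 animals 3, 6, 7 and 8 had 6.32% to 7.19% of all positions at the lowest unmethylated count, the other 7 no more than 4.70%, and without these 4 libraries the medians were 0.51 and 0.31. Cohort 14 alone gave 0.61 and 0.38.

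The window was not alone in this. From 89.5 to 91 Mb, 14 intermediate dense regions between 90430578 and 90482130 had a median r of 0.64 over 55 pairs at most 20 kb apart. Their median level was 50.9%, from 20.3% to 67.3%, and their median SD was 4.03 points. Of the windows with at least 20 such pairs, 3 in all, the remaining one had a median r of 0.07.

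**Figure D5:**
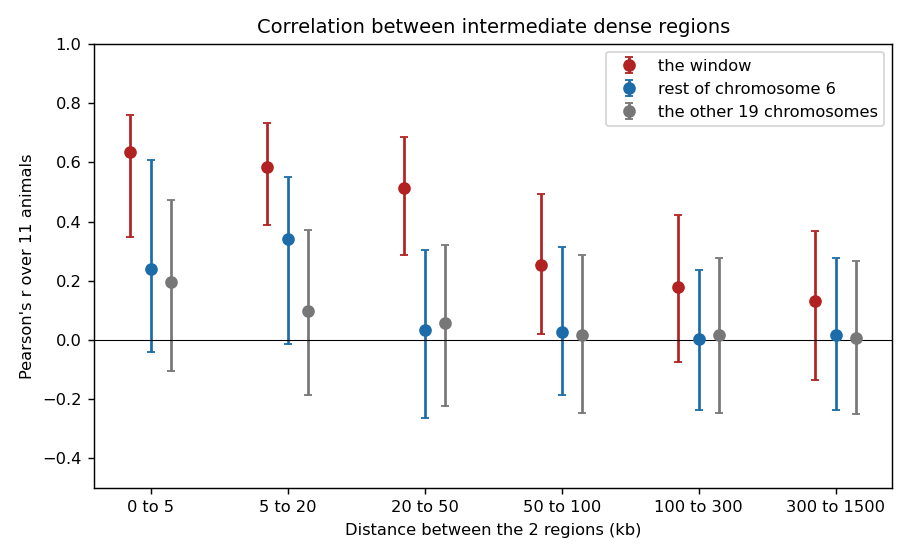
Points give the median and bars the middle 50% of Pearson's r over 11 animals, for pairs of intermediate dense regions from different islands, by the distance between them (kb). The window, in red, lies above the rest of chromosome 6 and the other 19 chromosomes at each distance, with a median of 0.63 at most 5 kb apart and 0.13 at 300 to 1500 kb.

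In no region of the window did a relation to the intake value pass the test. The comparison asked whether methylation before drinking went with the ethanol value recorded later. Of 119749 regions in the whole table with at least 5 positions and a pooled level from 5% to 95%, 251 lay in the window, and 24 others of it were left out as under 5% and 1 as over 95%. In the moderated logistic model, which uses limma to share the spread between regions, 0 of the 251 had an adjusted p under 0.05, and 0 of 119749 (0.0%) in all. At an unadjusted p under 0.05 there were 6, or 2.39%, against a background of 2.92%. Of these, 5 had a slope above 0 (background 1.82%) and 1 below 0 (background 1.1%). Limma on logit methylation also called 0 in the window.

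Slopes on intake lay on both sides of 0, so their median does not give their usual size. Over the 251 regions the slope ranged from -3.38 to 6.89 percentage points per unit of intake, with a median of 0.31 and a median SE of 1.502. The slope was above 0 in 157 of 251 regions, or 62.5%, and in 53.9% of all tested regions, and neighbouring regions are not independent. In the third array it was above 0 in 41 of 53 tested regions, in the second in 17 of 29 and in the first in 10 of 28. For 158 of the 251 regions both ends of the slope's 95% interval were less than 5 points from 0. That limit is wide here, with intake values from 1.69 to 4.31 and a median range between animals of 8.91 points in dense regions. The count therefore does not show that the slopes are small.

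The smallest p among slopes above 0 belonged to chr6:138869200-138870183, after the third array. The level there ran from 23.1% to 33.2% with a median of 30.4%, the slope was 3.51 ± 1.19 points per unit (SE, n = 11), and the adjusted p in the moderated logistic model rounded to 1. The level was lowest in cohort 14 animals 8 and 4, whose intake values were 2.33 and 1.69, and highest in animal 9, with 4.31. Other animals broke this order: cohort 10 animal 1, with 2.11, had 30.4%, and cohort 14 animal 1, with 3.21, had 26.7%. The low region at chr6:138890084-138891079 came next, at 4.06% to 7.46%, with a slope of 0.94 ± 0.39. The third was the most variable region of the window, chr6:138800119-138800589, with 6.89 ± 2.99. Among slopes below 0 the smallest p belonged to chr6:138248114-138249095 in the first array. Its 83 positions had levels from 45.8% to 51.3% with a median of 49.5%, and a slope of -1.997 ± 0.582. The next, chr6:138712732-138713158 and chr6:138099865-138100579, had slopes of -2.79 ± 1.37 and -3.21 ± 2.01. On the logit scale of the model, the slope at chr6:138712732-138713158 went from -0.11 to -0.05 without cohort 14 animal 9, and that at chr6:138099865-138100579 from -0.23 to -0.12 without cohort 14 animal 4. None of these 6 regions passed the adjusted threshold.

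No difference between cohorts 10 and 14 passed the test in the window. For cohort, the limma-moderated logistic model gave an adjusted p under 0.05 in 0 of 251 regions there, and in 0 of 119749 (0.0%) overall. There were 12 regions, or 4.78%, at an unadjusted p under 0.05, against a background of 2.47%. Both animals of cohort 10 were younger than those of cohort 14, and cohort cannot be told apart from age. The 2 animals of cohort 10 also differed from each other, at 31.6% and 40.1% over the second array.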

How the data were processed

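Capture bisulfite libraries (SureSelect XT Human Methyl-Seq, per the labels' protocols) of 11 animals were analysed. The authors deposited 2 tables of read counts per CpG position, methylated and total, not normalized; 5 columns of each matched no library and were not used. FastQC and Bismark are named in the submitters' processing notes; for versions, filters and genome build nothing is given in the sources used here. Methylated and unmethylated counts each had a lowest value of 1, so 1 may have been added to each; counts were used as deposited. Each position had at least 12 reads, above the coverage minimum of 10.

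Methylated and unmethylated counts of all regions with at least 5 positions and a pooled level from 5% to 95% were fitted by quasi-binomial regression on intake and cohort. Dispersions were moderated with limma 3.58.1 in R 4.3.3, and two-sided p-values adjusted after Benjamini and Hochberg, with a threshold of 0.05. Slopes and SEs in points came from least squares. Replicates are animals. Other steps used Python 3.11.15 with pandas 2.3.3, matplotlib 3.10.9, numpy 2.4.6 and scipy 1.17.1.

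The window, regions and lists were chosen with earlier results of these data known. Regions named: the 5 islands with most positions, the 5 dense regions with the highest, the lowest and the most variable levels and nearest 50%, the 3 smallest p-values for intake in each direction and the widest gaps. Arrays, steps, parts of islands and correlations were chosen after seeing the data, and other regions serve as examples of these. Alternatives changed the joining distance, the minimum of positions, the coverage, the limits of intermediate levels, the test and the animals.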

Additional observations from a re-analysis of the deposited data

Results flagged for a closer look

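The 9 animals of cohort 14 were examined for a distant value in 28 sets of levels and means, and 2 sets had one, while chance gives about 1 in 20 for normally spread values. The sets include regions chosen for their spread, so that rate need not hold here. Both had the same animal, cohort 14 animal 6, and both lay in the third array. At chr6:138747304-138748296 its level was 61.2%, against 39.5% to 47.2% in the other 8 of the cohort and 43.7% and 39.9% in cohort 10. At chr6:138764214-138766627 it was 42.9%, against 30.5% to 36.7% in the others and 34.9% and 29.3% in cohort 10. Its mean deviation over 43 intermediate dense regions of that array was 5.61 points, and over 449 on the rest of the chromosome it was -0.27.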

How the results depend on the processing

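The counts of regions of the window related to intake and differing between cohorts stayed 0 under 17 and 16 alternatives, and the number with an unadjusted p under 0.05 ran from 4 to 10 and from 5 to 12. The 6 slopes named kept their sign in 78 of 78 fits, and in size 4 of the 6 moved by less than 1.5 times in each. Without cohort 14 animal 9 or 4 the other 2 moved from -0.11 to -0.05 and from -0.23 to -0.12 on the logit scale. Leaving out either animal of cohort 10 gave the same intake slopes as cohort 14 alone, so these fits are not separate checks. The 6 were picked for small p-values in the same animals, so a kept sign is no independent support. The window held 78 dense regions with a minimum of 40 positions instead of 149. The share of dense regions at intermediate level was 72.5% with a join distance of 500 bp, 69.7% with at least 10 positions, 70.5% with at least 40, 47.0% with limits of 30% and 70%, and 26.2% with limits of 40% and 60%. The median level was 31.2% with a join distance of 500 bp and 32.6% with at least 10 positions. These alternatives change which regions are counted, or the limits, by construction. Without 1 animal the share ran from 66.4% to 67.1%, the median level from 29.1% to 29.98%, the median SD from 2.63 to 2.87 points, and the median r at most 20 kb apart from 0.54 to 0.62. The window stayed first in its share at intermediate level with the tiling shifted by 0.75 Mb and among windows with at least 10 dense regions. No paired analysis was possible because the animals of a cohort are numbered only by accession order, which pairs none of them across cohorts.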
